A study of Homo sapiens with 2 samples.

Results

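Epithelial-mesenchymal transition (EMT) regulators and mesenchymal marker mRNAs were examined for crosslinking to the RNA-binding protein RBM47. The genes are VIM, ZEB1, ZEB2, SNAI1, SNAI2, TWIST1, CDH2, CDH1, CD44 and HMGA2, and each was followed through every binding cluster that carried its gene symbol. Of the 10 genes, 6 had clusters, which numbered 990 of the 233546 in the table. SNAI1, TWIST1, CDH1 and CDH2 had no cluster, either by symbol or by Entrez gene ID.

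The cells were MDA231-BrM2a, a brain metastatic and non-clonal population derived from the breast cancer line MDA-MB-231, carrying a doxycycline-inducible transgene for wild-type RBM47 with a Flag tag. All samples received 1 ng/ml doxycycline for 3 days, then UV irradiation and HITS-CLIP, in which RNA crosslinked to the tagged protein is recovered with an anti-Flag antibody and sequenced. The labels give a single group, Flag-RBM47, with 2 replicates. Without a control library to set beside them, these values include an unmeasured background of the immunoprecipitation, and they describe the transgenic protein.

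In EMT, epithelial cells lose cell-cell junctions and take on a motile, mesenchymal state. The SNAI, ZEB and TWIST transcription factors repress epithelial genes such as CDH1 (E-cadherin), while CDH2 (N-cadherin) and VIM (vimentin, an intermediate filament protein) mark the mesenchymal state. CD44 is a hyaluronan receptor whose pre-mRNA holds a run of variable exons that are spliced differently in epithelial and mesenchymal cells. HMGA2 is a chromatin protein that acts upstream of SNAI1 and TWIST1, and let-7 microRNAs repress its mRNA through the 3′UTR. The miR-200 family restrains ZEB1 and ZEB2 in the same manner.

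Since 3′UTR regulation is part of what these mRNAs are known for, the microRNAs concerned are shown first, from RefSeq, with the seed (bases 2 to 8) in capitals. The miR-200b and miR-200c seeds are identical.
let-7a-5p: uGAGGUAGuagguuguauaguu
miR-200a-3p: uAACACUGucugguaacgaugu
miR-200b-3p: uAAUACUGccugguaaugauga
miR-200c-3p: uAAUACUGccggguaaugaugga

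The 7-letter complements of these seeds were searched on the mRNA strand of the annotated 3′UTRs (GENCODE on GRCh37, 1 transcript per gene). HMGA2 held 4 copies of the let-7 complement CTACCTC in a 3′UTR of 2999 nt, and the other 5 bound genes held 0. Of 2362 3′UTRs of similar length (from 0.8 times its length to the inverse of that factor), 14.8% held at least 1 copy and 0.0847% held as many as HMGA2. ZEB1 held 6 copies of the miR-200b/c complement CAGTATT in 2540 nt, where 27.2% of 3′UTRs of similar length held any. ZEB2 held 5 in 5370 nt, where 46.9% held any, and SNAI2 held 1 in 1209 nt, where 12.3% held any. The miR-200a complement CAGTGTT occurred 3 times in ZEB1 and 4 times in ZEB2, where 29.1% and 52.2% of 3′UTRs of similar length held any. Each of these shares counts the 3′UTR of the gene itself. The copy nearest to the stop codon in HMGA2 (position 21 of the 3′UTR) and in ZEB1 (position 369) are printed with the match in capitals.
HMGA2, let-7: gccaacgttcgatttCTACCTCagca
ZEB1, miR-200b: attgttttatcttatCAGTATTatca
A match of letters is a description and not a measured site. The clusters are in hg18 coordinates and these 3′UTRs in GRCh37, so the distance from a cluster to a match was not computed.

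The table held 999047 tags (unique reads) from replicate 1 and 3489697 from replicate 2. No listed cluster had fewer than 5 tags or lacked a tag from either replicate, so a gene without a cluster may still have been bound below that limit. Tags were also counted on markers of the labelled line and of other cells. A cluster shows crosslinking to Flag-RBM47, so a marker without a cluster may still be expressed. All 8 markers of basal B breast cancer lines had more than 100 tags, from 234 for CAV2 to 8676 for CD44, with VIM and CD44 among the 8. Of all 7712 genes with a cluster, 3801 had more than 100 tags. Of 6 luminal markers, which include CDH1, EPCAM alone had a cluster, with 11 tags. The 3 leukocyte and 3 fibroblast markers had none. Of 3 neuronal and glial markers, MBP had 941 tags. The number of tags on a gene depends on the level of its RNA, which was not analysed here, and its part in any difference between genes was not tested.

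Counting only clusters with 10 or more tags, 4 of the 6 genes with a cluster had more than 100 tags. Among all 7712 genes with a cluster the share was 39.9%. The other 4 of the 10 genes, which had no cluster, are in neither figure. The 6 bound genes together had 4.85 tags per 1000 tags of replicate 1 and 4.92 per 1000 of replicate 2 (4.88 ± 0.0463, SD, n = 2). Their 21778 tags made up 0.49% of all tags, and CD44, HMGA2, ZEB1 and VIM held 98.7% of them.

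CD44 had the most tags. Its 155 clusters held 1816 tags in replicate 1 and 6920 in replicate 2, which is 1.82 and 1.98 per 1000 (1.90 ± 0.117). By the authors' total of 8676 tags it ranked 28 among all genes. The genes next to it in that order were FMN1 (8705 tags) and FTX (8678) above and SLC38A2 (8385) and MAP1B (8363) below.

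HMGA2 had 404 clusters with 1240 and 4143 tags in replicates 1 and 2, or 1.24 and 1.19 per 1000 (1.21 ± 0.0382). It ranked 66 by its 5293 tags and 28 by its number of clusters. Its neighbours by tags were DST (5427) and SPTBN1 (5378) above and EPT1 (5265) and NT5E (5231) below.

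ZEB1, a zinc finger repressor of CDH1, had 378 clusters with 989 and 3255 tags, or 0.990 and 0.933 per 1000 (0.961 ± 0.0404). It ranked 108 by its 4171 tags and 36 by cluster number. UHMK1 (4195 tags) and N4BP2L2 (4189) stood above it, and ITGA6 (4170) and SEL1L (4166) below.

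VIM had only 17 clusters, with 729 and 2617 tags, or 0.730 and 0.750 per 1000 (0.740 ± 0.0143). It ranked 158 by its 3345 tags.

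ZEB2, the close relative of ZEB1, had 31 clusters with 61 and 192 tags, or 0.0611 and 0.0550 per 1000 (0.0580 ± 0.00427). SNAI2 (Slug), a zinc finger repressor, had 5 clusters with 12 and 32 tags, or 0.0120 and 0.00917 per 1000 (0.0106 ± 0.00201). The median gene with a cluster had 96 tags in 9 clusters. ZEB2, with 249 tags in all, stood above that median and SNAI2, with 44, below it.

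**Figure D1:**
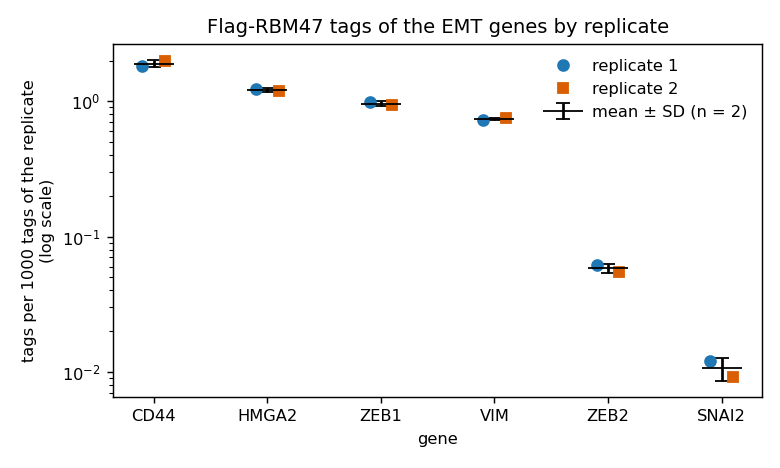
Tags per 1000 tags of the replicate (log scale) for each gene with a cluster, with circles for replicate 1, squares for replicate 2 and bars for the mean ± SD (n = 2). CD44, HMGA2, ZEB1 and VIM sit between 0.730 and 1.98 in both replicates, and ZEB2 and SNAI2 lie well below them.

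The order CD44, HMGA2, ZEB1, VIM, ZEB2, SNAI2 was the same in both replicates. On the log2 scale, the level (tags per 1000) of CD44 exceeded that of HMGA2 by 0.65 ± 0.13 (SD, n = 2). The difference was 0.34 ± 0.02 from HMGA2 to ZEB1 and 0.38 ± 0.09 from ZEB1 to VIM. It was 3.67 ± 0.13 from VIM to ZEB2 and 2.47 ± 0.17 from ZEB2 to SNAI2. Each of these steps was larger than its spread between the replicates, although 2 replicates give that spread little precision.

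Per length the order was another. In tags per kb of cluster length, VIM had 1241, CD44 399, HMGA2 136, ZEB1 120, ZEB2 103 and SNAI2 96.3. The median of the 3801 genes with more than 100 tags was 148 tags per kb, and VIM ranked 37 among them. ZEB1 lay below VIM per kb by a log2 difference of -3.31 ± 0.09. ZEB2 and SNAI2 per kb differed by 0.07 ± 0.17, which is within the spread. Over clusters with 10 or more tags, VIM passed ZEB1 in total tags as well, with 3327 against 2754.

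By location label, the genes ranged from tags almost wholly in exons to tags mostly in introns. VIM had 98.2% of its tags in exon-labelled clusters (98.2% in each replicate), and SNAI2 had 100%. CD44 had 67.8% (66.2% and 67.8% in replicates 1 and 2), ZEB2 46.2% (49.2% and 45.8%), HMGA2 13.4% (12.2% and 13.6%) and ZEB1 11.4% (11.5% and 11.3%). Among all genes, 41.3% of tags lay in 3′UTR clusters and 27.5% in intron clusters. Among the 6 genes together the figures were 17.4% and 51.4%. Their intron share fell to 26.1% when clusters of fewer than 30 tags were left out. The share of all genes at that minimum was not computed, so 26.1% cannot be set beside 27.5%. Counting every label that includes the 3′UTR, the 3′UTR share was 34.9% for the 6 genes and 54.9% for all genes.

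**Figure D2:**
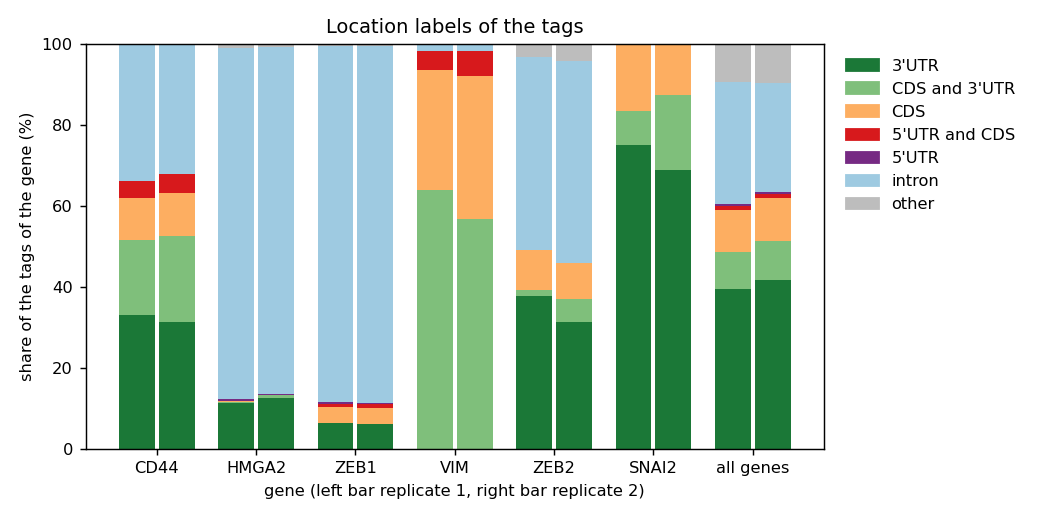
Share of each gene's tags (%) by the location label of the cluster, with replicate 1 in the left bar and replicate 2 in the right bar, and all genes with a cluster at the far right. HMGA2 and ZEB1 are mostly intron, VIM mostly coding sequence and its junction with the 3′UTR, and CD44 divides between the 3′ end and introns.

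VIM was bound along its coding exons and above all at the 3′ end of the gene. A single cluster of 402 nt at chr10:17319226-17319628 (hg18, plus strand), which spans the end of the CDS and the 3′UTR, held 466 tags in replicate 1 and 1487 in replicate 2. That was 63.9% of the VIM tags of replicate 1 (Wilson 95% interval 60.4 to 67.3) and 56.8% of those of replicate 2 (54.9 to 58.7). Intervals here and below cover counting error only. The cluster held 4858 tags per kb and ranked 83 among all clusters. VIM ranked 31 of 2344 genes by tags in clusters of this label.

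The other VIM exon clusters were smaller. The 8 CDS clusters held 216 and 924 tags, 29.6% and 35.3% of the gene in replicates 1 and 2. The largest, at chr10:17317173-17317397, had 55 and 270 tags, and one near the start, at chr10:17311622-17311973, had 38 and 199. The cluster over the 5′UTR and CDS at chr10:17311249-17311587 had 34 and 159 tags. The 7 intron clusters held 13 and 47 tags, 1.78% and 1.80%, and none of them exceeded 11 tags. No VIM cluster was labelled 3′UTR alone.

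CD44 combined heavy 3′ end binding with a block of intron clusters. The last 5 clusters, at chr11:35207249-35210525 (hg18, plus strand), covered 3268 of 3276 nt and held 938 tags in replicate 1 and 3637 in replicate 2. They made up 51.7% and 52.6% of the gene (52.1% ± 0.641, SD, n = 2). The largest, a 3′UTR cluster at chr11:35208844-35210525, had 445 and 1645 tags and ranked 72 among all clusters. The CDS and 3′UTR cluster at chr11:35207249-35208324 had 340 and 1470 tags and ranked 92. CD44 ranked 57 of 6009 genes by tags in 3′UTR clusters and 33 of 2344 by tags in CDS and 3′UTR clusters.

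**Figure D3:**
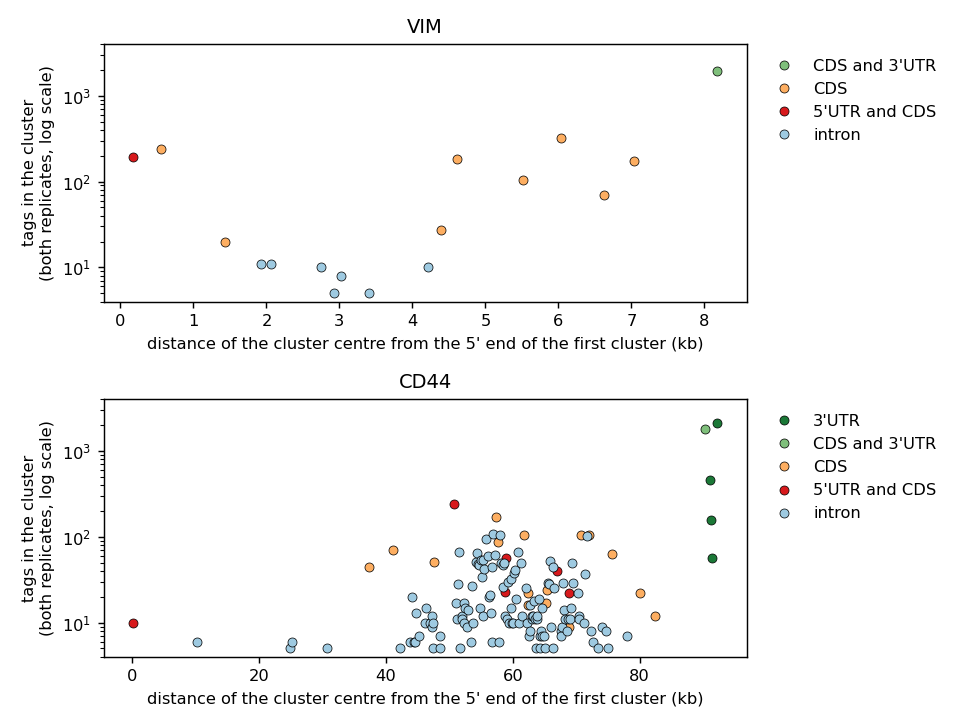
Tags in each cluster (both replicates, log scale) against the distance of its centre from the 5′ end of the first cluster (kb) for VIM and CD44, coloured by location label. In VIM one cluster at the 3′ end holds 1953 tags, and in CD44 a dense group of intron and CDS clusters at 50 to 70 kb precedes the 3′ end clusters.

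The 128 CD44 intron clusters held 613 tags in replicate 1 and 2225 in replicate 2. They were 33.8% and 32.2% of the gene's tags, close to the 3′UTR share of 32.9% and 31.3%. Their distribution along the gene was narrow. From 50 to 70 kb beyond the first cluster, 95 clusters held 82.4% and 86.2% of the intron tags (84.3% ± 2.70), while the first 40 kb held 1.47% and 0.584%. Over the same stretch and up to 77 kb lay 16 of the CDS or 5′UTR and CDS clusters, with 219 and 893 tags, or 82.6% and 84.4% of that class. The CD44 variable exons lie in the middle of the gene, but no exon coordinates of the same build were used here, so clusters were not assigned to single exons. The median CD44 intron cluster had 12 tags, against 7 for intron clusters of all genes. The largest had 20 and 90 tags at chr11:35174199-35174483.

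HMGA2 was covered by small intron clusters. Its 375 intron clusters held 1076 tags in replicate 1 and 3548 in replicate 2, or 86.8% and 85.6% of the gene. HMGA2 ranked 26 of 4177 genes by intron tags and 29 by intron clusters. The median intron cluster had 8 tags. The largest, at chr12:64564463-64564757 (hg18, plus strand), had 33 and 85 tags, and 82 clusters were needed to reach 50% of the tags of the gene.

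The HMGA2 intron tags were spread over the first 130 kb of the gene, unevenly. In bins of 10 kb, the highest share was at 20 to 30 kb, with 15.8% of the intron tags of replicate 1 and 15.9% of those of replicate 2. The bin at 50 to 60 kb held 13.8% and 12.8%, and that at 30 to 40 kb, between them, held 5.48% and 5.41%. The share was 1.58% and 1.47% at 90 to 100 kb and 7.16% and 7.10% at 110 to 120 kb.

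The HMGA2 3′UTR, the kind of region that holds the let-7 matches shown above, had clusters as well. At the 3′ end of the gene, 17 such clusters at chr12:64643481-64646316 covered 2488 of 2835 nt and held 127 tags in replicate 1 and 495 in replicate 2. The largest, at chr12:64644077-64644328, had 17 and 70 tags, and that at chr12:64644514-64644662 had 14 and 70. The HMGA2 3′UTR clusters had a median of 22.5 tags, against 13 for those of all genes. Another 3 clusters with a 3′UTR or CDS and 3′UTR label lay 17 to 19 kb from the start of the gene's clusters, with 13 and 50 tags. When clusters closer than 50 nt were joined, the largest stretch of HMGA2 held 547 tags, or 10.3% of the gene.

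ZEB1 resembled HMGA2 in its intron share. Its 344 intron clusters held 869 tags in replicate 1 and 2873 in replicate 2, or 87.9% and 88.3% of the gene. ZEB1 ranked 36 of 4177 genes by intron tags, again without allowance for intron length. Per kb of intron cluster it had 117 tags, and all genes had 115. Binding was denser toward the 5′ end. The first 40 kb of a span of 207872 nt held 51.8% and 55.9% of the intron tags (53.8% ± 2.91), and the stretch from 100 to 180 kb held 12.1% and 9.33%. The largest cluster, at chr10:31680380-31680731 (hg18, plus strand), had 22 and 72 tags, and 98 clusters were needed for 50% of the tags of the gene.

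Exon-labelled clusters held 11.4% of the ZEB1 tags, although the ZEB1 3′UTR clusters had a median of 17 tags, against 13 for those of all genes. The 14 3′UTR clusters at chr10:31856202-31858134 held 62 and 203 tags, 6.27% and 6.24% of the gene. The largest of them, at chr10:31857294-31857553, had 8 and 36 tags. The 11 CDS clusters held 41 and 123 tags, 4.15% and 3.78%. ZEB1 ranked 1351 of 6009 genes by tags in 3′UTR clusters, against 569 for HMGA2 and 57 for CD44.

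**Figure D4:**
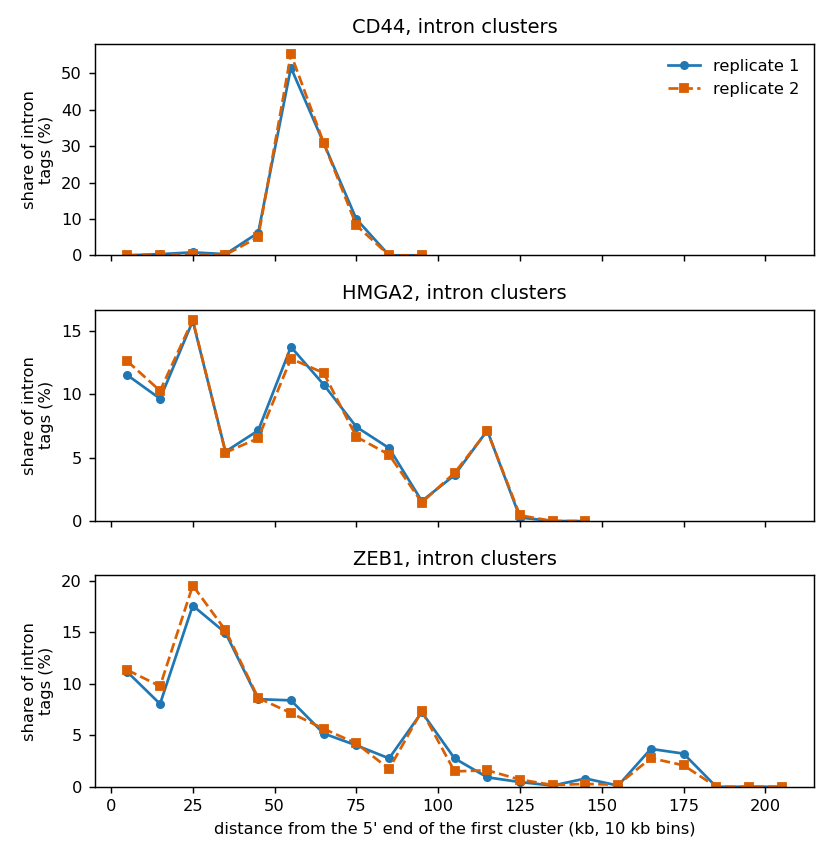
Share of the intron tags (%) of CD44, HMGA2 and ZEB1 in 10 kb bins from the 5′ end of the first cluster, with circles for replicate 1 and squares for replicate 2. CD44 intron tags concentrate at 50 to 70 kb, HMGA2 intron tags are spread over 130 kb with the highest bin at 20 to 30 kb, and ZEB1 is highest in the first 40 kb, in both replicates.

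ZEB2 had 19 intron clusters with 29 and 96 tags (49.8% of the tags of the gene), and all lay in the first 31 kb of a span of 129158 nt. No ZEB2 intron cluster had more than 13 tags. Its largest cluster was in the 3′UTR at chr2:144863089-144863218 (hg18, minus strand), with 12 and 30 tags, and 4 3′UTR clusters 120 to 130 kb along the gene held 18 and 50 tags. Another 2 clusters labelled 3′UTR, with 15 tags in all, lay further 5′, at 2978 and 87670 nt from the first cluster. Over its clusters with 10 or more tags, the 3′UTR share of ZEB2 exceeded its intron share by 50.5 percentage points, the reverse of the difference of -17.7 points over all its clusters, since only 6 clusters reached 10 tags.

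SNAI2, on chromosome 8, had no intron cluster. Its 3 3′UTR clusters held 9 tags in replicate 1 and 22 in replicate 2, its CDS and 3′UTR cluster 1 and 6, and its CDS cluster 2 and 4. With 44 tags in all, the regional shares of SNAI2 are imprecise.

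**Figure D5:**
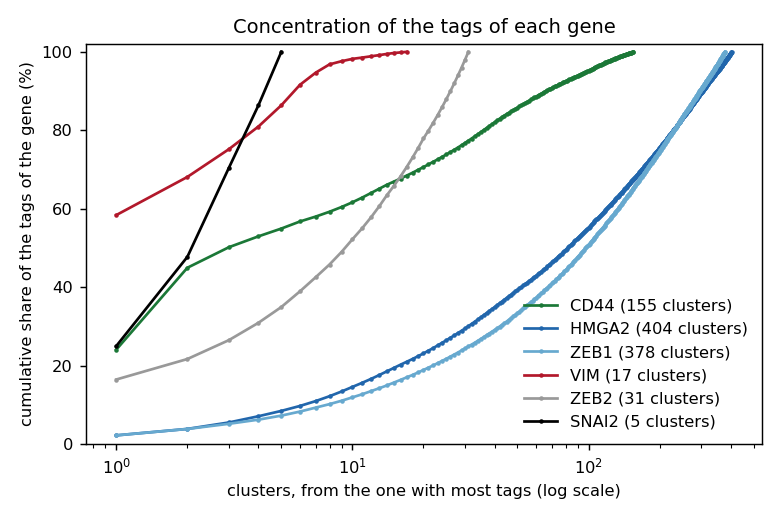
Cumulative share of a gene's tags (%) against the number of clusters, counted from the one with most tags (log scale). One cluster gives 58.4% of the VIM tags and 3 clusters reach 50% for CD44, while HMGA2 and ZEB1 need 82 and 98.

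The replicates were compared cluster by cluster and gene by gene. Each count was set against the share of all tags that came from replicate 1 (22.3% over clusters and 22.04% over tags in genes). The test was an exact binomial test, two-sided, with p-values adjusted by Benjamini-Hochberg over the whole table, and it compares these libraries and not conditions. None of the 990 clusters passed, while 0.0111% of all clusters did. An unadjusted p under 0.05 was found for 34 of the 990, or 3.43%, and for 3.04% of all clusters. The smallest adjusted p was 0.755, for the CD44 cluster at the CDS and 3′UTR. At this depth a difference in a small cluster was not detectable. The test also makes no allowance for the listing minimums of 1 tag in each replicate and 5 in total. The absence of calls is therefore no measure of agreement between the libraries.

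No gene of the 6 passed at the gene level, against 1.52% of all genes. Replicate 1 gave 20.8% of the CD44 tags (Wilson 95% interval 19.9 to 21.7, unadjusted exact binomial p = 0.00489, adjusted p = 0.149). It gave 23.3% of the ZEB1 tags (22.1 to 24.6, unadjusted exact p = 0.0475, adjusted p = 0.468). The shares were 23.04% for HMGA2 (21.9 to 24.2), 21.8% for VIM (20.4 to 23.2), 24.1% for ZEB2 (19.3 to 29.7) and 27.3% for SNAI2 (16.3 to 41.8). Where the reference share was taken from clusters of at least 100 tags instead (20.8%), HMGA2 and ZEB1 passed, with adjusted exact binomial p-values of 0.00495 and 0.00531, and the other 4 did not. With that reference, 3.54% of all genes passed. HMGA2 had 1 cluster of at least 100 tags and ZEB1 had 0, so the reference comes from clusters larger than nearly all of theirs. A cluster was listed only with at least 1 tag in each replicate. In replicate 1, 123 of the 404 HMGA2 clusters and 131 of the 378 ZEB1 clusters had exactly 1 tag. How far this minimum shaped the calls of HMGA2 and ZEB1 was not tested.

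Across the clusters of a gene, Spearman's rho between the replicates was 0.880 for VIM (17 clusters), 0.755 for CD44 (155), 0.451 for HMGA2 (404) and 0.285 for ZEB1 (378). It was 0.194 for ZEB2 (31) and 0.368 for SNAI2 (5). The clusters of a gene share its RNA and the 2 libraries, and the median cluster held 27 tags in VIM, 15 in CD44, 9 in HMGA2, 8 in ZEB1, 6 in ZEB2 and 10 in SNAI2. Of the 990 clusters, 20 had at least 100 tags, or 2.02%, and 1.93% of all clusters did.

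Other genes of the same programme were counted by role, each list with its median over the genes that had a cluster (96 tags for all genes). Of all 7712 genes with a cluster, 39.9% had more than 100 tags in clusters of at least 10. The share of all annotated genes that had a cluster was not computed. Of 14 other EMT transcription factors and regulators, 8 had a cluster and 3 had more than 100 tags in clusters of at least 10 (median 82.5 tags). TEAD1, a DNA-binding partner of YAP1, had 3221 tags, the coactivator YAP1 had 2389 and SOX9 had 341. They were bound mainly in the 3′UTR, with 75.1%, 57.3% and 86.5% of their tags there. TEAD1 differed in its split between the libraries (adjusted exact binomial p = 0.0143), with 0.689 ± 0.0875 tags per 1000. The exact test allows for counting error only and called 117 genes. A beta-binomial model, which allows for further spread between libraries, called 6. Its result for TEAD1 was not examined. TWIST2, SNAI3, PRRX1, FOXC2, GSC and TCF4 had no cluster.

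Of 6 splicing regulators active in EMT, 4 had a cluster and all 4 exceeded 100 tags (median 1566). MBNL1 had 3386 tags, QKI 1810 and SRSF1 1322. ESRP1 and ESRP2, the epithelial regulators of CD44 variable exons, had no cluster. Among 6 partners of HMGA2 on the let-7 axis, 3 had a cluster and more than 100 tags (median 844). These were IGF2BP2 with 1838 tags, 96.2% of them in introns, DICER1 with 844 and IGF2BP3 with 529. LIN28A, LIN28B and IGF2BP1 had no cluster.

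Of 12 mesenchymal and matrix genes, 8 had a cluster and 6 had more than 100 tags in clusters of at least 10 (median 1120.5). Among them, the receptor tyrosine kinase AXL had 3265 tags and the lysyl oxidase LOX had 2884. Their levels were 0.704 ± 0.0615 and 0.633 ± 0.0245 tags per 1000, beside 0.740 ± 0.0143 for VIM. AXL had 64.7% and LOX 12.2% of their tags in clusters labelled 3′UTR alone. No VIM cluster carried that label alone, but the cluster labelled CDS and 3′UTR held 58.4% of the VIM tags. CDH11, MMP2, S100A4 and TGFBI had no cluster.

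Of 18 epithelial junction and keratin genes, 9 had a cluster and 6 had more than 100 tags in clusters of at least 10 (median 660). The catenins CTNNA1 and CTNNB1 had 1909 and 1387 tags, and the tight junction gene CLDN1 had 1440. CDH3, JUP, CLDN3, KRT8, KRT18, KRT19, GRHL2, OVOL1 and OVOL2 had no cluster. Of 8 intermediate filament genes other than VIM, 3 had a cluster and 0 had more than 100 tags (median 41). LMNB1 had 80 tags, SYNM 41 and LMNB2 28, and LMNA, NES, DES, GFAP and KRT7 had no cluster. These lists describe how many genes had tags and were not tested against other genes.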

How the data were processed

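HITS-CLIP tags were measured in 2 replicates of Flag-RBM47 cells. Per the submitters' processing notes, Novoalign and hg18 were used, with no version given. The authors collapsed reads to unique tags with a degenerate barcode, grouped overlapping tags into clusters and deposited counts of tags, with each replicate and the total in separate columns. The minimums of 1 tag in each replicate and 5 in total were read from the values, so clusters missing from the smaller library are absent and column sums (999047 and 3489697) are not library depths. The replicate columns exceed the authors' total in 164 of the 990 clusters. The total served for ranks and regions, and the replicate columns for levels and tests.

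Clusters were taken by gene symbol and checked by Entrez ID against RefSeq. Gene tags are sums over clusters, and levels are tags per 1000 tags of a replicate. Location labels are the authors', and a cluster counts in a class only where its labels are exactly that class. Cluster length is end minus start, as listed, and whether positions count from 0 or 1 is not known. Splits between replicates were tested with exact binomial tests, two-sided (SciPy 1.17.1, Python 3.11.15) with Benjamini-Hochberg adjustment at 0.05. The test was tried on simulated data with shifts planted only in clusters and genes of at least 100 tags, and otherwise counting error only. The listing minimum of 1 tag in each replicate was not simulated, and smaller clusters with a shift were not tried. The authors call binding sites found in both replicates biologically reproducible. Nothing states that the replicates came from separate cultures, so their spread may be technical.

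The text names all 10 genes, the 3 genes with most tags in each list (1 of them is not reported here), genes without a cluster in the lists other than cell type markers, and the 2 genes on either side of CD44, HMGA2 and ZEB1 in rank. Those without a cluster, and the cell line markers CAV2, EPCAM and MBP, were named after their values were seen. The genes and lists were chosen with earlier results of these data known. Alternatives were tag minimums of 10 and 30, other location rules and denominators, joining clusters closer than 50 nt, other reference shares, a beta-binomial model and leaving out each replicate. No genome of the files' build was used, so no cluster sequence is shown.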

Additional observations from a re-analysis of the deposited data

How the results depend on the processing

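Few tags per cluster limit these results, with a median of 2 tags per cluster in replicate 1, as does the rule for location labels. The number of genes with a cluster and with more than 100 tags moved by less than 1.5 times in every setting. Of the 6 genes, 2 held their place in the order with clusters of at least 30 tags, and 2 held it in tags per kb. The 3′UTR share of 17.4% became 20.2% with clusters of at least 10 tags, 25.6% with at least 30 and 34.9% with every label that includes the 3′UTR. Without either replicate it ranged from 17.1% to 17.3%. The intron share of 51.4% became 43.6% and 26.1% at those minimums and ranged from 51.2% to 53.6% without either replicate. The level of 4.88 tags per 1000 became 5.17 and 5.32 at those minimums, 6.16 over tags with a gene ID and 5.07 without NEAT1 and MALAT1. The share of tags in each gene's largest cluster, 19.8%, became 23.4% and 33.1% at those minimums and 34.3% with clusters closer than 50 nt joined, and ranged from 19.4% to 20.3% without either replicate. The gene-level split called 2 genes with the reference share of clusters of at least 100 tags and 0 under the other settings, the beta-binomial model included. In settings chosen after seeing the data, the difference between 3′UTR and intron shares reversed for CD44, from -0.38 points to 2.74, 15.5 and 20.5 (at least 10 tags, at least 30 tags and every label). It reversed for VIM, from -1.79 to 56.6 points with every label, and for ZEB2, from -17.7 to 50.5 and 100 points at the minimums of 10 and 30 tags. The changes under minimums follow from leaving out small clusters. No paired analysis was possible because the labels give 1 group only.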

Other observations

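Among 7 CD44 partners and hyaluronan genes, 4 had a cluster and 3 had more than 100 tags in clusters of at least 10 tags (median 725.5). These were the ezrin family members that link CD44 to actin, MSN with 1623 tags, EZR with 866 and RDX with 585, each with 70.5% to 80.5% of its tags in the 3′UTR. HAS2, HAS3 and MMP9 had no cluster.

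CDH1 and CDH2 had no cluster, but another classical cadherin did. CDH4 had 1267 tags in 112 clusters, with 277 tags in replicate 1 and 1010 in replicate 2, and 99.6% of its tags were in introns. CDH18 had 29 tags and CDH24 had 5. CDH18 and CDH24 were chosen after their values were seen, and CDH4 is one of the 12 mesenchymal and matrix genes counted above.

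No cluster of another gene lay within the span of the clusters of any of the 6 genes. Within 10 kb of the ZEB1 clusters, 6 clusters on the opposite strand held 55 tags. The only gene named among them was ZEB1-AS1, which had 5 clusters with 14 and 31 tags, the nearest 3179 nt away. Within 10 kb of the VIM clusters, on the same strand, lay 1 other cluster with 5 tags. Near HMGA2, 3 clusters of RPSAP52 on the opposite strand held 16 tags.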
